A study of Homo sapiens with 4 samples.

Results

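The zinc-finger gene clusters of human chromosome 19 were examined for peaks of BRPF3 in RKO cells, an established colon carcinoma line. All BRPF3 peaks on chromosome 19 whose centre lay in 1 of 5 hg19 windows of KRAB zinc-finger genes were taken. The windows span 11.5 to 12.8 Mb (window A), 19.8 to 24.6 Mb (B), 36.0 to 38.5 Mb (C), 43.9 to 45.1 Mb (D) and 52.5 to 59.1 Mb (E), which is 16.4 Mb together. They held 731 of the 38123 peaks of the series, and 273 of its 14039 regions after peaks that overlap were merged. The rest of chromosome 19 held 1832 peaks in 682 regions. The rule uses positions and no peak value.

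BRPF3 was mapped by chromatin immunoprecipitation and sequencing (ChIP-seq), with 1 library in each of 3 conditions. HU cells had been held in 0.5 mM mimosine for 22 h, released for 3 h and then given 3 mM hydroxyurea (HU) for 1 h 30 min. Mimosine cells had the same 22 h in 0.5 mM mimosine with no release, and asynchronous cells were untreated. A rabbit IgG library from the HU condition served as the control of all 3 peak lists, per their names, so the lists share it. With 1 library per condition there is no replicate, no value below carries a p-value, and the intervals cover counting error only. They treat peaks as independent, which neighbouring peaks may not be.

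KRAB zinc-finger proteins are DNA-binding repressors that recruit the corepressor TRIM28, and many of them silence transposable elements. Their genes arose by repeated duplication and stand in long tandem clusters on chromosome 19, where a repressive methyl mark of histone H3 lies over the bodies of many of them while their promoters can stay active. BRPF3 holds together complexes built around a MYST-type histone acetyltransferase such as HBO1 (KAT7) and helps bring the enzyme to chromatin. Mimosine stops the cell cycle near the entry into S phase, and HU stalls replication forks by draining nucleotide pools. In the RefSeq gene table of GRCh38.p14, 250 of 517 protein-coding genes whose symbol starts with ZNF and a number lie on chromosome 19 (48.4%), against 1451 of 20052 protein-coding genes of any symbol (7.24%). That table is of another build than the peaks, so no peak was assigned to a gene, and which peaks lie at zinc-finger genes and which at other genes inside the windows is not known. The label of the windows could therefore not be checked against the peaks.

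BRPF3 peaks were about as dense in the zinc-finger windows as on the rest of the chromosome, and the windows differed widely from each other. The 5 windows held 260 peaks in HU cells, 210 in mimosine cells and 261 in asynchronous cells. These are 15.9, 12.8 and 15.9 peaks per Mb in HU, mimosine and asynchronous cells, against 15.2, 12.5 and 15.2 on the rest of chromosome 19. The 95% intervals overlapped in each list, for example 14.0 to 17.9 in the windows and 14.1 to 16.5 on the rest in HU cells. The order turned when the longest stretch of the chromosome with no peak in any list (chr19:24271341-28282310, 4.01 Mb, mostly outside the windows) was left out of the lengths, giving 16.2, 13.1 and 16.3 peaks per Mb in the windows against 16.7, 13.7 and 16.7 on the rest. It also turned in all 3 lists with window A, D or E left out. The remaining windows then had 14.8, 14.9 and 14.3 peaks per Mb in HU cells. They had 11.7, 12.2 and 11.3 in mimosine cells and 14.6, 15.1 and 14.1 in asynchronous cells. Narrowing each window by 0.2 Mb at both ends turned the order too. The windows then had 14.6, 11.9 and 14.7 peaks per Mb in HU, mimosine and asynchronous cells, against 15.7, 12.8 and 15.7 on the rest. The peaks covered 4.28% of the windows in HU cells, 2.07% in mimosine cells and 3.77% in asynchronous cells, against 4.59%, 2.58% and 4.16% of the rest. The lengths behind these shares include the longest stretch without a peak, which lies mostly on the rest.

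Window B was the sparsest, and windows A and D were the densest. Window B held 27 HU, 21 mimosine and 27 asynchronous peaks over 4.80 Mb, or 5.63, 4.38 and 5.63 peaks per Mb. Window A held 36 HU, 34 mimosine and 40 asynchronous peaks over 1.30 Mb, or 27.7, 26.2 and 30.8 per Mb. Window D had 28.3, 20.0 and 26.7 per Mb, above window A in HU cells and below it in mimosine and asynchronous cells, while window E had 18.2, 15.0 and 18.7 and window C 17.2, 12.8 and 15.6. The interval of window B ended at 8.18 peaks per Mb in HU, 6.69 in mimosine and 8.18 in asynchronous cells, below the lower bounds of the other 4 windows in each list. With window B left out, the other windows together had 20.1, 16.3 and 20.2 peaks per Mb in HU, mimosine and asynchronous cells.

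**Figure D1:**
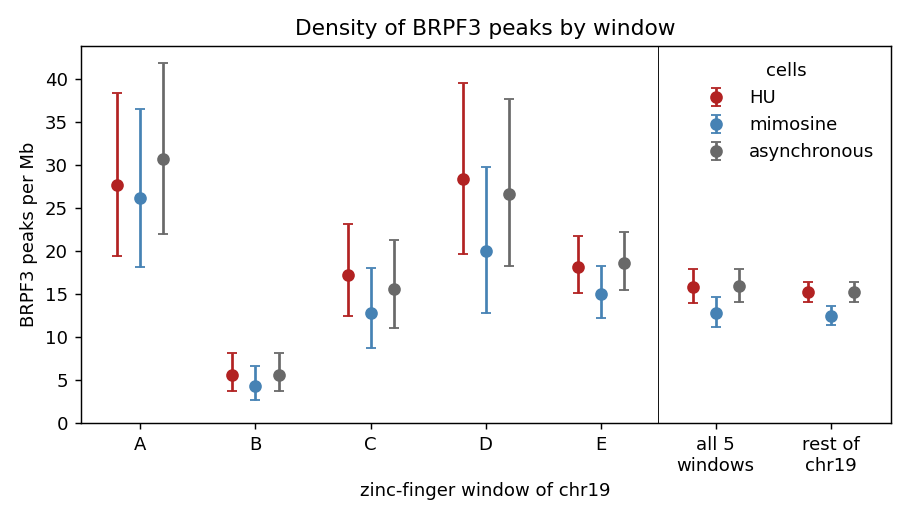
BRPF3 peaks per Mb (vertical axis) in each of the 5 zinc-finger windows, in all 5 together and on the rest of chromosome 19, for HU, mimosine and asynchronous cells. Points are single libraries and bars are exact Poisson 95% intervals; window B lies lowest, at 5.63, 4.38 and 5.63 peaks per Mb in HU, mimosine and asynchronous cells, and all windows together lie close to the rest.

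Within window B the peaks stood in separate groups around a long stretch without any. Of its 27 merged regions, 18 lay before and 9 after chr19:21950873-23430128, a stretch of 1479.3 kb with no peak in any list and the longest inside the windows. The next longest stretch inside the windows was chr19:57149943-57702080 in window E, 552.1 kb long. Regions of window B were 829 to 3991 bp wide, with a median of 2541 bp. The median distance between centres of neighbouring regions was 70.9 kb in window B (95% interval 44.2 to 185.8 kb), 40.0 kb in window C, 29.2 kb in window E, 28.8 kb in window A and 22.5 kb in window D. Over all 5 windows it was 30.6 kb (27.1 to 35.9 kb), against 27.7 kb (25.4 to 30.8 kb) on the rest of chromosome 19. The densest stretch of 1 Mb inside the windows held 33 HU peaks (chr19:43967721-44862137, window D), 29 mimosine peaks (chr19:11804778-12782155, window A) and 31 asynchronous peaks (chr19:11528751-12512577, window A). On the rest of the chromosome the densest such stretch held 44 HU, 38 mimosine and 43 asynchronous peaks. Window E was uneven in the same way. Its last 0.6 Mb, from 58.5 Mb on, held 22 HU, 19 mimosine and 22 asynchronous peaks. Scaled to 1 Mb these are 36.7, 31.7 and 36.7 peaks, a rate over a shorter stretch than the counts above. The densest full 1 Mb of window E held 31 HU, 26 mimosine and 31 asynchronous peaks. The 1 Mb from 56.5 to 57.5 Mb had 6 HU, 5 mimosine and 7 asynchronous peaks.

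Few peaks of the zinc-finger windows were among the strongest of their list. The authors' score rises with the significance of a peak, and each peak was placed by the percentile of its score in its whole list, so that by construction 25.0% of each list stands above the 75th percentile. In the windows, 25 of 260 HU peaks did so (9.62%, 95% interval 6.32 to 13.9%), 21 of 210 mimosine peaks (10.0%, 6.30 to 14.9%) and 22 of 261 asynchronous peaks (8.43%, 5.36 to 12.5%). On the rest of chromosome 19 the shares were 23.7% of HU peaks (20.5 to 27.2%), 28.2% of mimosine peaks (24.4 to 32.2%) and 21.1% of asynchronous peaks (18.0 to 24.4%). In each list the interval of the windows thus lay below that of the rest. The middle of the ranking was correspondingly full. Peaks between the 25th and 75th percentiles, 50% of each list, made up 65.8% of HU, 61.4% of mimosine and 60.5% of asynchronous peaks in the windows, against 47.5%, 49.2% and 47.2% on the rest, with intervals apart in each list. The lowest 25% of each list supplied 24.6% of HU, 28.6% of mimosine and 31.0% of asynchronous peaks in the windows, against 28.8%, 22.6% and 31.7% on the rest, and those intervals overlapped in each list.

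**Figure D2:**
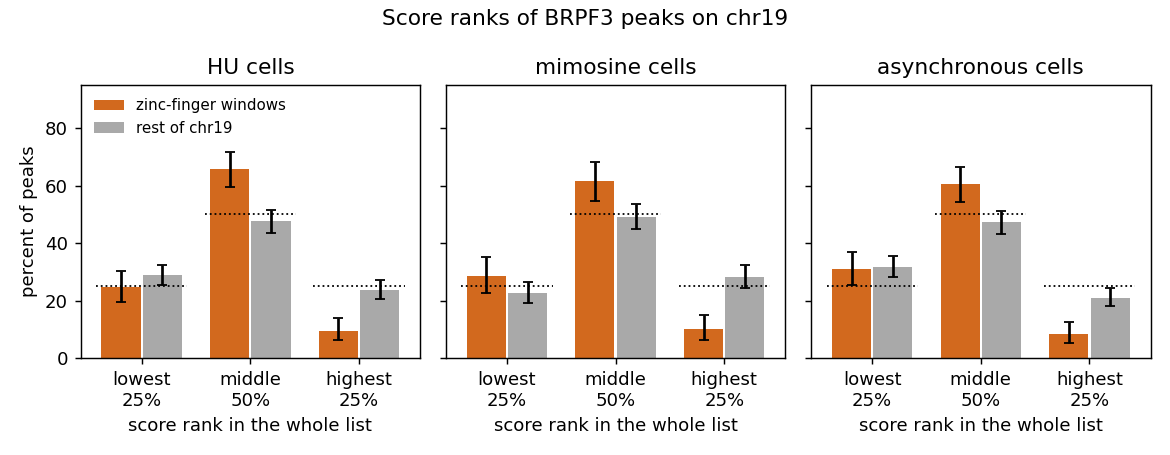
Share of BRPF3 peaks (vertical axis, percent) in the lowest 25%, middle 50% and highest 25% of their list by score, for zinc-finger windows and the rest of chromosome 19, with a panel each for HU, mimosine and asynchronous cells. Bars carry exact 95% intervals and dotted lines mark the share in the whole list; in all 3 panels the windows stand above the rest in the middle and below it in the highest 25%.

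The median percentile of the windows was 41.2 in HU cells (95% interval 37.5 to 45.2), 39.0 in mimosine cells (33.8 to 43.8) and 36.05 in asynchronous cells (32.3 to 40.3). The rest of chromosome 19 had medians of 44.9 in HU cells (40.4 to 49.0), 51.9 in mimosine cells (47.2 to 56.0) and 42.2 in asynchronous cells (39.3 to 45.9). The intervals of windows and rest were apart in mimosine cells and overlapped in HU and asynchronous cells. Percentiles of different lists are on different scales and were not compared, except to choose the leading regions named below. Window D had the lowest median in each list, at 30.6 in HU, 28.4 in mimosine and 29.9 in asynchronous cells. Window B had the highest in mimosine cells, at 47.6, and in asynchronous cells, at 46.2, and window A the highest in HU cells, at 45.3. All intervals of single windows overlapped each other within a list.

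The strongest peaks lay mainly in window E. A score of 3100 or more, a range in which the deposited score does not resolve the order, was carried by 7 HU, 2 mimosine and 7 asynchronous peaks of the windows (2.69%, 0.952% and 2.68%), against 8.00%, 3.95% and 7.38% on the rest and 7.25%, 2.91% and 7.45% of the whole lists. All of these peaks were in window E except 1 asynchronous peak in window C. The region chr19:55893862-55900887 in window E scored 3100 in all 3 lists, with peaks of 7026 bp in HU, 6106 bp in mimosine and 6503 bp in asynchronous cells. Another mimosine peak at that score, chr19:56151309-56157234, lay inside HU and asynchronous peaks of the same score. With window E left out, 7.14% of HU, 3.60% of mimosine and 5.80% of asynchronous peaks of windows A to D stood above the 75th percentile. In window E itself the shares above the 75th percentile were 12.5% in HU, 17.2% in mimosine and 11.4% in asynchronous cells. They were the highest of the 5 windows in each list, so leaving window E out could only lower the share. The 95% intervals of window E were 7.17 to 19.8%, 10.3 to 26.1% and 6.36 to 18.4%. They lay below the interval of the rest in HU cells and overlapped it in mimosine and asynchronous cells. Window A had 0 of 34 mimosine peaks in that range, which allows a share of up to 8.82%, and window B 0 of 21, which allows up to 14.3%. Window A also had 0 of 40 asynchronous peaks there, which allows up to 7.50%. The exact 95% intervals ended higher, at 10.3%, 16.1% and 8.81%, and included the shares of all 5 windows together.

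The other windows were led by regions of lower rank, chosen as those whose lowest percentile over the 3 lists was highest. In window C it was chr19:36206068-36211105, with scores of 3022 in HU, 1618 in mimosine and 3100 in asynchronous cells. In window D it was chr19:44255317-44262441, the widest region of that window, with scores of 2178 in HU, 938 in mimosine and 1876 in asynchronous cells. Window A was led by chr19:12776101-12782291 with scores of 2302 in HU, 670 in mimosine and 1009 in asynchronous cells, where 1 HU peak spanned 2 mimosine and 2 asynchronous peaks. In window B it was chr19:21324280-21327112, with scores of 1421 in HU, 540 in mimosine and 1191 in asynchronous cells. Its percentiles were 78.6 in the HU, 68.3 in the mimosine and 73.9 in the asynchronous list, each a rank within its own list.

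Peaks in the windows were of moderate width, and none was broad. Median widths were 2468 bp in HU cells (95% interval 2347 to 2586 bp), 1435 bp in mimosine cells (1352 to 1551 bp) and 2234 bp in asynchronous cells (2139 to 2349 bp). On the rest of chromosome 19 they were 2633 bp in HU cells (2456 to 2774 bp), 1727 bp in mimosine cells (1616 to 1854 bp) and 2371 bp in asynchronous cells (2266 to 2482 bp). The intervals of windows and rest were apart in mimosine cells alone. The widths differed mainly at the upper end. The upper quartiles in the windows were 3249 bp in HU, 1931 bp in mimosine and 2860 bp in asynchronous cells, against 3795, 2634 and 3383 bp on the rest, while the lower quartiles were 1920, 1036 and 1646 bp against 1865, 1208 and 1707 bp. The widest peaks of the windows were 7919 bp in HU, 6106 bp in mimosine and 6787 bp in asynchronous cells, so that 0 exceeded 10 kb, against 3 HU, 1 mimosine and 2 asynchronous peaks on the rest and 1.14%, 0.251% and 0.866% of the whole lists. A count of 0 allows shares of up to 1.15% of the HU, 1.43% of the mimosine and 1.15% of the asynchronous peaks of the windows, which includes the shares of the whole lists. The widest region of all, chr19:59064339-59072257 in window E, held 1 HU peak of 7919 bp, 2 mimosine peaks of 5072 bp together and 2 asynchronous peaks of 6524 bp together. In window B the widest was chr19:21203079-21207069, with peaks of 3969 bp in HU, 2142 bp in mimosine and 3111 bp in asynchronous cells.

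**Figure D3:**
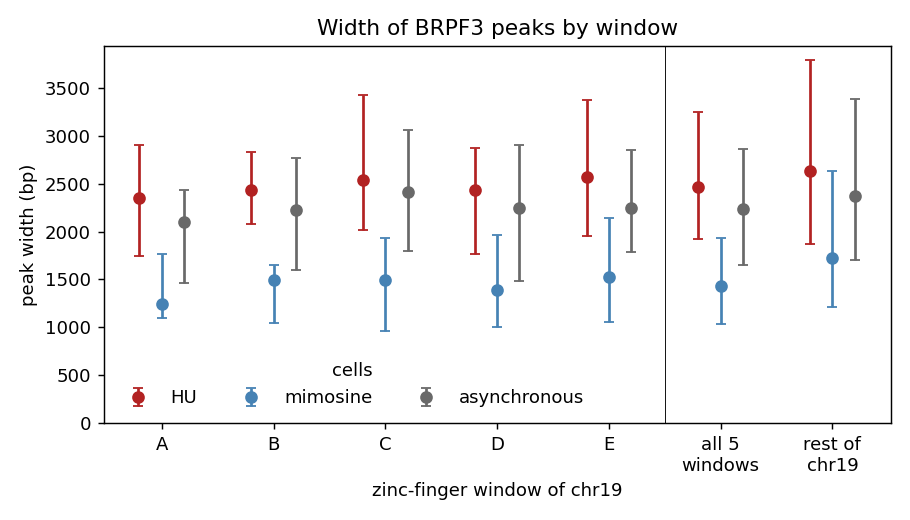
Peak width in bp (vertical axis) in each zinc-finger window, in all 5 together and on the rest of chromosome 19, for HU, mimosine and asynchronous cells. Points are medians over peaks of 1 library and bars run from the lower to the upper quartile; mimosine medians lie between 1249 and 1524 bp in the single windows, below the HU and asynchronous medians of the same window.

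At sites held by all conditions, the mimosine peak was the narrowest nearly everywhere. The mimosine list was also the weakest as a whole, with a median score of 277, against 534 in HU and 562 in asynchronous cells. Read depth is unknown, and the part of depth or enrichment in the widths was not tested. The windows had 171 regions with exactly 1 peak per list, with median widths of 2646 bp in HU, 1461 bp in mimosine and 2369 bp in asynchronous cells. The mimosine peak was narrower than the asynchronous peak in 168 of the 171 (98.2%, against 98.2% over the whole series), and in 97.8% of 402 such regions on the rest. The median ratio of mimosine to asynchronous width was 0.637 in the windows (95% interval 0.611 to 0.662), against 0.685 on the rest of chromosome 19 (0.667 to 0.723) and 0.694 over the whole series. Mimosine peaks under 50% of the asynchronous width made up 39 of 171 regions in the windows (22.8%, 16.7 to 29.8%), against 14.2% on the rest (10.9 to 18.0%) and 14.9% in the whole series. The HU peak was wider than the mimosine peak by a median factor of 1.74 in the windows (1.69 to 1.91), against 1.59 on the rest (1.55 to 1.63). The mimosine peak was the wider in 1 of 171 regions (0.585%, against 0.0693% in the whole series). HU peaks had a median of 1.10 times the asynchronous width in the windows (1.06 to 1.13) and 1.08 times on the rest (1.06 to 1.10), and those intervals overlapped. HU peaks were narrower than asynchronous peaks in 42 of 171 regions of the windows (24.6%, against 24.9% in the whole series). Within single windows the mimosine to asynchronous ratio was lowest in window B, at 0.588 (0.515 to 0.686), and highest in window C, at 0.675 (0.501 to 0.785).

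Peak rank moved with this ratio. Regions of low score had lower mimosine to asynchronous ratios in both parts of the chromosome, and only 10.5% of the 171 regions of the windows were above the 75th asynchronous percentile, against 25.4% of the 402 regions of the rest. Regions were therefore also split by their asynchronous percentile, which was decided after the values were seen. The median ratio was 0.558 in the windows and 0.572 on the rest below the 25th percentile, and 0.602 and 0.626 from the 25th to the 50th. It was 0.667 and 0.717 from the 50th to the 75th percentile, and 0.794 and 0.799 above the 75th. The windows were lower in each band, by less than the whole difference of 0.637 against 0.685 in 3 of 4 bands, and the intervals of windows and rest overlapped in all 4. For HU over mimosine the ratios from the lowest to the highest band were 2.28, 1.88, 1.65 and 1.41 in the windows and 2.08, 1.73, 1.56 and 1.32 on the rest, again with overlapping intervals in all 4. The part of rank in the difference was not tested.

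**Figure D4:**
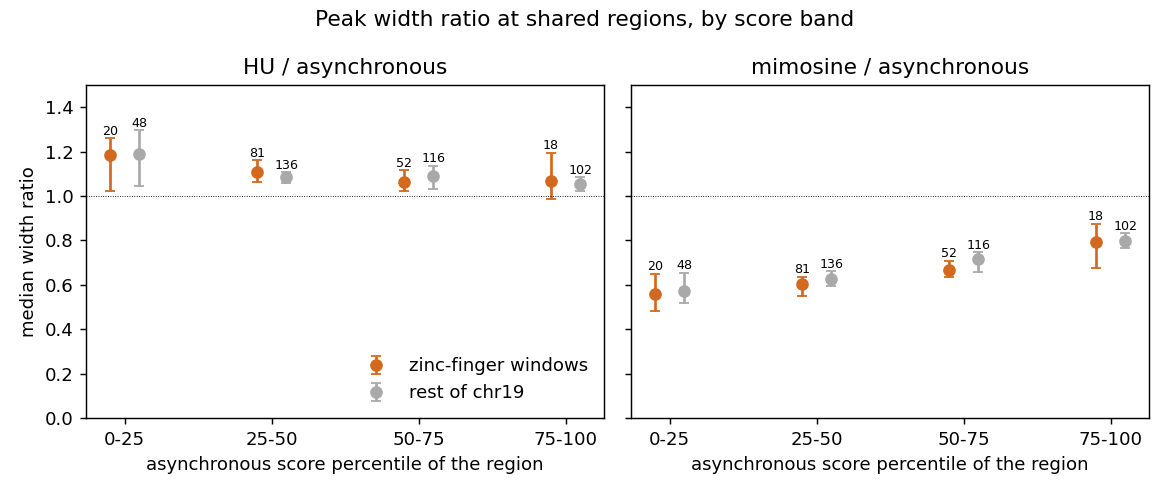
Median ratio of peak widths (vertical axis) for HU over asynchronous cells (left panel) and mimosine over asynchronous cells (right panel), in regions with exactly 1 peak per list, by the region's asynchronous score percentile, for zinc-finger windows and the rest of chromosome 19. Bars are 95% order-statistic intervals and numbers are regions; the mimosine ratio climbs with the percentile, to 0.794 in the windows and 0.799 on the rest.

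Single sites ranged widely around these medians. In window E, chr19:58788686-58791604 had a mimosine peak of 633 bp inside HU and asynchronous peaks of 2919 and 2494 bp, a mimosine to asynchronous ratio of 0.254. In window C, chr19:36133721-36136113 had peaks of 2393 bp in HU, 589 bp in mimosine and 2300 bp in asynchronous cells. In window D, chr19:44710954-44713589 had peaks of 2636 bp in HU, 726 bp in mimosine and 2496 bp in asynchronous cells. Windows A and B reached 0.342 at chr19:12074623-12077177 and 0.381 at chr19:21264540-21267367. Each of these 5 regions stood below the 50th percentile of all 3 lists. The reverse was rare. At chr19:12097737-12100720 in window A the mimosine peak, 2719 bp, was wider than the HU peak of 2565 bp and the asynchronous peak of 2417 bp. At chr19:36388403-36392260 in window C the widths were 3858 bp in HU, 3263 bp in mimosine and 3086 bp in asynchronous cells. The highest ratios elsewhere were 0.992 in window E (chr19:55879751-55882721), 0.893 in window B (chr19:21541360-21543760) and 0.861 at the leading region of window D. In windows B, D and E no mimosine peak of these regions was wider than its asynchronous partner.

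Few of these sites were split into several peaks. Of the 191 regions of the windows called in all 3 lists, 3 were split into more than 1 peak in HU cells (1.57%), 15 in mimosine cells (7.85%, 95% interval 4.46 to 12.6%) and 6 in asynchronous cells (3.14%). On the rest of chromosome 19 the shares were 1.92%, 11.5% (8.79 to 14.8%) and 4.06%, and over the whole series 1.15%, 11.9% and 2.81%. The mimosine intervals of windows and rest overlapped. In window B, 0 of 21 such regions were split in mimosine cells, which allows a share of up to 14.3%.

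Most sites of the windows were common to all conditions. Of the 273 regions, 191 were called in all 3 lists (70.0%, against 71.5% over the series), and 47 in HU and asynchronous cells only (17.2%, against 14.7%). HU cells alone held 15 (5.49%, against 8.08%), asynchronous cells alone 16 (5.86%, against 4.97%) and mimosine cells alone 1 (0.366%, against 0.242%). HU and mimosine cells together held 3 (1.10%, against 0.349%), and mimosine and asynchronous cells together 0, which allows up to 1.10%, where the series had 0.142%. The rest of chromosome 19 had 68.6% of its 682 regions in all 3 lists and 17.6% in HU and asynchronous cells only. In each of the 7 classes the exact interval of the windows overlapped that of the rest.

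A mimosine counterpart was missing about as often in the windows as on the rest of the chromosome. No mimosine peak overlapped 65 of 260 HU peaks (25.0%, 95% interval 19.9 to 30.7%, against 24.6% of the whole list) and 68 of 261 asynchronous peaks (26.1%, 20.8 to 31.8%, against 22.6%). On the rest the shares were 27.2% of HU peaks (23.8 to 30.8%) and 26.5% of asynchronous peaks (lower bound 23.1%). Windows C and D had the highest shares, with 16 of 43 HU peaks (37.2%) and 12 of 39 asynchronous peaks (30.8%) in window C, and 12 of 34 HU peaks (35.3%) and 12 of 32 asynchronous peaks (37.5%) in window D. Window A had the lowest, with 5 of 36 HU peaks (13.9%) and 8 of 40 asynchronous peaks (20.0%). The intervals of these windows overlapped, at 4.67 to 29.5% in window A and 23.0 to 53.3% in window C for HU peaks. Peaks with a score below 100 were 27 HU, 46 mimosine and 38 asynchronous peaks of the windows (10.4%, 21.9% and 14.6%, against 14.8%, 21.4% and 13.1% of the whole lists). In windows A to E they made up 11.1%, 3.70%, 14.0%, 20.6% and 7.50% of HU peaks and 20.0%, 3.70%, 12.8%, 15.6% and 15.4% of asynchronous peaks. Window A, lowest in asynchronous peaks without a mimosine peak, had the highest share of such weak asynchronous peaks. In HU cells, windows C and D had the highest shares both of such weak peaks and of peaks without a mimosine peak. Window D had the highest share of asynchronous peaks in the lowest 25% of their list, at 40.6%. It was also highest in asynchronous peaks without a mimosine peak. The part of score in the differences between windows was not tested.

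**Figure D5:**
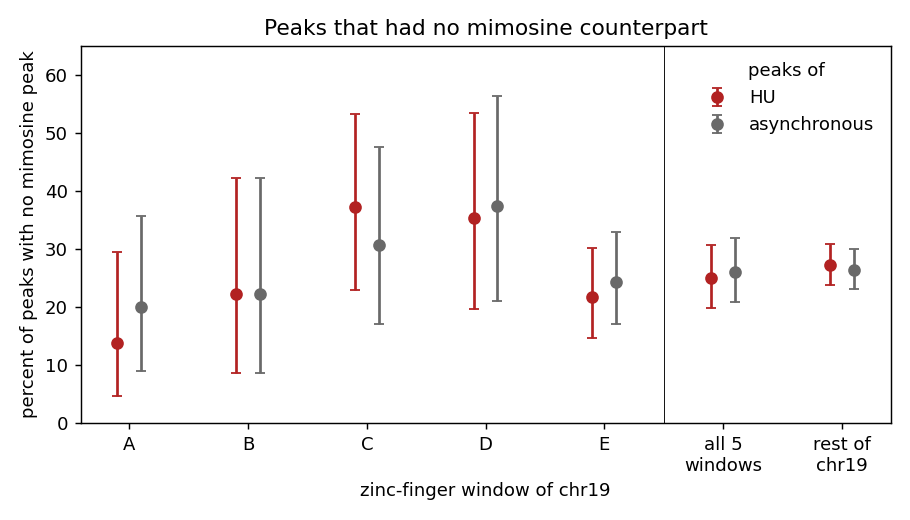
Share of HU and asynchronous peaks that no mimosine peak overlapped (vertical axis, percent), in each zinc-finger window, in all 5 together and on the rest of chromosome 19. Bars are exact 95% intervals for counting error; windows C and D lie highest, at 37.2% and 35.3% of HU peaks, and every window's interval overlaps that of the rest.

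As in the whole lists, the peaks without a mimosine counterpart were low in rank. In the windows, 52 of 64 HU peaks up to the 25th percentile had no mimosine peak (81.3%, against 84.1% of the whole list), and 13 of 106 between the 25th and 50th (12.3%, against 14.2%). Among the higher-scoring 50%, 0 of 90 HU peaks lacked one, which allows a share of up to 3.33%, against 0.104% of the whole list. For asynchronous peaks the counts were 59 of 81 (72.8%, against 76.5%), 9 of 98 (9.18%, against 13.5%) and 0 of 82, which allows up to 3.66%, against 0.258%. The rest of chromosome 19 gave 82.9% and 12.8% for HU peaks and 74.3% and 11.2% for asynchronous peaks in the lower bands, with 0 of 291 and 0 of 274 in the upper 50%. The 47 regions called in HU and asynchronous cells only had percentiles of 0.04 to 42.4 in HU and 0.60 to 39.5 in asynchronous cells. Their median width was 2011 bp in HU and 1646 bp in asynchronous cells, against 1557 and 1412 bp for the 120 such regions on the rest. The 47 regions also ranked higher, with median percentiles of 20.55 in HU and 17.3 in asynchronous cells, against 15.1 and 13.0. The part of rank in their widths was not tested. The leading one was chr19:36604172-36607507 in window C, with peaks of 3336 bp in HU and 2955 bp in asynchronous cells and scores of 405 and 390. Window E was led by chr19:58660850-58663282, with scores of 386 in HU and 193 in asynchronous cells, window D by chr19:44437703-44440101, with 232 and 337, and window B by chr19:20277622-20279569, with 237 and 273. In window A the leading region was chr19:11638892-11640690, with scores of 88.3 in HU and 71.0 in asynchronous cells.

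Peaks found in 1 list alone were small and weak. The 15 HU-only regions were 602 to 1944 bp wide and scored 52.0 to 175, the highest being chr19:37662458-37664215 in window C. The 16 asynchronous-only regions were 577 to 1576 bp wide and scored 50.8 to 137, the highest being chr19:44488050-44489440 in window D. The sole mimosine-only region, chr19:38135934-38136294 in window C, was 361 bp wide and scored 59.6. The leading region of the 3 called in HU and mimosine cells only was chr19:56181396-56182265 in window E, with peaks of 870 bp in HU and 354 bp in mimosine cells and scores of 95.4 and 61.8. HU-only regions of the rest of chromosome 19 reached a score of 199 and asynchronous-only regions 212. Of HU peaks in the windows, 18 of 260 had no asynchronous peak (6.92%, against 8.82% of the whole list and 8.00% on the rest). Of mimosine peaks, 4 of 210 had no asynchronous peak (1.90%, against 1.14% of the whole list and 0.940% on the rest) and 1 had no HU peak (0.476%, against 0.468%). Of asynchronous peaks, 16 of 261 had no HU peak (6.13%, against 5.46% of the whole list and 6.15% on the rest).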

How the data were processed

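BRPF3 ChIP-seq peaks of RKO cells were taken from 3 deposited lists, 1 per library. Per the submitters' processing notes the tools were bedtools, MACS 1.4.0, SAMtools and Bowtie 0.12.8; their order and settings are not given in the sources used here. The deposited score is the authors' own value per peak; by the caller's usual format it is 10 times the negative base-10 logarithm of a p-value, and its lowest value is 50. The deposited start and end positions are another kind of value, in bp, and are printed counted from 1. The notes name hg18 and hg19; all 3 lists hold peaks past chromosome ends of hg18 and of GRCh38 and none past those checked in hg19. Reads were not analysed here, and read depth is unknown. GEO's description field names other BRPF proteins where titles and antibody fields name BRPF3, which was followed.

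Peaks of the lists were matched by an overlap of 1 bp, and overlapping peaks were merged into regions. A region or peak belonged to a window by its centre. Lengths ran from the first to the last chromosome 19 peak. Shares carry Clopper-Pearson, densities exact Poisson and medians binomial order-statistic 95% intervals; the limit for a count of 0 is 3 counts. Named regions were the strongest, the widest, those of extreme mimosine to asynchronous width ratio and the strongest missing from mimosine cells in each window, the strongest of each class, and the longest gaps and densest 1 Mb stretches; peaks at a score of 3100 were named after their values were seen. The windows, regions and comparisons were chosen with earlier results of these data known. Software was SciPy 1.17.1, NumPy 2.4.6, pandas 2.3.3 and matplotlib 3.10.9 under Python 3.11.15. The share of asynchronous peaks without a mimosine peak and the median mimosine to asynchronous width ratio were tested on simulated lists. In those lists the loss of peaks did not depend on score, unlike in the data. Merging and the intervals were checked on small examples with known answers. The other calculations were not tested in this way. No sequence is printed, since no genome of the peaks' build was used.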

Additional observations from a re-analysis of the deposited data

How the results depend on the processing

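For the windows and the rest of chromosome 19, 46 values were set out. Narrowing the windows by 0.2 Mb moved none of them beyond its 95% interval (counts of regions: by over 1.5 times). Nor did leaving out window A or peaks wider than 10 kb where these were run. No peak of the windows was wider than 10 kb, so that setting could move only the rest. Membership by any overlap gave the main values again in all 46, so it was no separate check. It and the main setting are included in the counts of settings below. In all settings the windows had lower median widths, percentiles and mimosine to asynchronous ratios than the rest. Their density was lower in 5 of 12 settings, and their share without a mimosine peak in 9 of 12 for HU and 6 of 12 for asynchronous peaks, so neither order was stable. Values below are for the windows and then the rest. With a score of 100 or more, by construction fewer peaks, densities were 10.0 and 9.97 per Mb in mimosine, 13.6 and 12.5 in asynchronous cells, and 12.7 on the rest in HU cells. HU peaks without a mimosine peak reached 31.8% in the windows. Median widths were 1599 and 1986 bp in mimosine, 2353 and 2686 bp in asynchronous cells, and 2963 bp on the rest in HU cells. Median percentiles were 46.4 and 63.3 in mimosine, 40.6 and 51.1 in asynchronous cells, and 54.6 on the rest in HU cells. Mimosine peaks without an asynchronous peak fell to 0% in both parts. Regions of HU and mimosine cells and of mimosine cells alone fell to 0 in both parts, those of mimosine and asynchronous cells to 0 on the rest, and asynchronous-only ones to 3 in the windows. A reciprocal overlap of 50% left without a mimosine peak 53.8% and 47.8% of HU and 44.1% and 40.3% of asynchronous peaks, and without an asynchronous peak 30.5% and 27.1% of mimosine peaks and 10.5% of HU peaks on the rest. It gave 89 and 194 regions of HU and asynchronous cells, 57 and 131 of mimosine cells alone, 3 and 9 of mimosine and asynchronous cells, and on the rest 4 of HU and mimosine and 59 of asynchronous cells alone. Centres within 1 kb left 5.71% and 9.21% of mimosine peaks without an asynchronous peak, which put the windows below the rest. Leaving out the longest stretch without a peak gave 16.7, 13.7 and 16.7 peaks per Mb on the rest in HU, mimosine and asynchronous cells, and merging peaks within 1 kb gave 11.2 in mimosine cells there. Leaving out window B gave 20.1, 16.3 and 20.2 peaks per Mb in the windows. Leaving out window E left 99 regions of all 3 lists, 29 of HU and asynchronous cells, 9 of HU and 8 of asynchronous cells alone. Window E held 125 of the 273 regions of the windows, so these counts fell by construction. As shares of regions they were 66.9%, 19.6%, 6.08% and 5.41%, against 70.0%, 17.2%, 5.49% and 5.86% with window E. Without window C there were 0 mimosine-only regions, and without window D there was 1 of HU and mimosine cells. Widening the windows by 0.2 Mb left 1 such region on the rest, and merging within 1 kb left 1 mimosine-only region there. With regions whose 3 peaks all scored 100 or more, added after seeing the data, the ratios on the rest were 0.725 for mimosine over asynchronous and 1.54 for HU over mimosine. By construction, a score of 100 or more can only raise median percentiles, and a reciprocal overlap of 50% can only raise the shares without a partner. For the other shifts the cause was not tested. No paired analysis was possible because each condition had 1 library. Unknown read depth limits what an absent or a narrower peak means.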
